A study of Mus musculus with 4 samples.

Results

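Ad IIc is the largest of the 5 adipocyte labels that the submitters gave to barcodes of an epigonadal white fat library. Its members were the barcodes listed in the deposited table of the 4-month male mice with the tissue code for epigonadal fat and the cell type Ad IIc. There were 658 of them among 5043 barcodes of the library and among 1564 labelled barcodes (42.1%). The remaining labels were Ad Ia with 106 barcodes, Ad Ib with 152, Ad IIa with 590 and Ad IIb with 58, and 3479 barcodes had no label. In the deposited table every Ad IIc barcode, and no barcode of another label, lay in cluster 0 at a clustering resolution of 0.8. The labels were thus made from the same RNA that is compared here, so each difference between labels is a description and carries no test.

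The series measured RNA of single nuclei from the thymus and from epigonadal fat, the visceral depot that lies along the gonads. The epigonadal mice were wild type males of 4 months without treatment, labelled Naïve. The protocol given for the series digests tissue with DNase I and Collagenase II, takes the floating white layer after centrifugation and isolates nuclei from it, but names only thymic capsules as its starting tissue. The sources used here do not say how many mice contributed nuclei. Since it is 1 library, no value has a replicate check, and each interval is a 95% interval for counting error only.

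White adipocytes store triglyceride in a large lipid droplet and release hormones such as adiponectin and leptin. In any cell, introns are removed from a transcript inside the nucleus and the finished mRNA is exported to the cytoplasm. Some long RNAs, Malat1 and Neat1 among them, stay in the nucleus. Nuclear preparations are therefore usually rich in intron-bearing RNA of long genes and in such retained RNA, whereas mRNA for ribosomal proteins and for soluble enzymes is mostly found in the cytoplasm. Mitochondrially encoded RNA is made and kept in mitochondria, outside the nucleus.

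Start sites of 5 of 6 adipocyte markers set for these cells were matched by symbol in the RefSeq promoter table (GRCm38.p6), and Car3 was the missing entry. The 250 bases before the start are shown for 3 markers whose products adipocytes secrete and whose levels were high together in Ad IIc. Capitals mark CCAAT, the letters of the CCAAT box, or its reverse complement ATTGG.
Adipoq (chr16:23146286-23146535, plus strand): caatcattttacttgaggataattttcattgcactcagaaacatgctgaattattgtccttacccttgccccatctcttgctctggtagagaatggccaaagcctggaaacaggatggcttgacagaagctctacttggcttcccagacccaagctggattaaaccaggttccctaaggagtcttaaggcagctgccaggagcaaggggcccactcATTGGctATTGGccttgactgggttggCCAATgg
Retn (chr8:3655520-3655769, plus strand): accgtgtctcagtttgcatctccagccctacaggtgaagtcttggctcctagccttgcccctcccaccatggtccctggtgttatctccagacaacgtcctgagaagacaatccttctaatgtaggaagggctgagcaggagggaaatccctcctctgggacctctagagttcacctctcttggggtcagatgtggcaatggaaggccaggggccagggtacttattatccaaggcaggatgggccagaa
Cfd (chr10:79890603-79890852, plus strand): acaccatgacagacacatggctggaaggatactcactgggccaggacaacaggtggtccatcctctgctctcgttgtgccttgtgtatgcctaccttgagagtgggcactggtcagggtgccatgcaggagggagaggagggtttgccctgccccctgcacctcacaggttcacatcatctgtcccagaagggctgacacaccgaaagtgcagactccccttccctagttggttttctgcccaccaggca
The Adipoq window held 3 CCAAT matches, at 34 to 30, 27 to 23 and 7 to 3 bases before the start. On both strands, 33.8% of 32851 promoters in the table held CCAAT, 9.56% the C/EBP palindrome TTGCNNAA, 14.0% the nuclear receptor half-site AGGTCA and 12.4% TATAAA. None of these 4 motifs was found in the Retn and Cfd windows, and the other 3 were not found in the Adipoq window. A match is only a match of letters.

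The 658 Ad IIc barcodes carried 550816 UMIs (unique molecular identifiers, 1 per captured RNA molecule), of which 516172 came from nuclear-encoded genes. Their median was 714 UMIs (range 500 to 2777) and 408 genes per barcode, and 520 of them (79.0%) had fewer than 1000 UMIs. Ad Ia had a median depth of 1077 UMIs, Ad Ib of 678.5, Ad IIa of 1916, Ad IIb of 2313 and unlabelled barcodes of 794. All labelled barcodes were classed as singlets in the deposited table. Of the Ad IIc barcode sequences, 20 also occurred in the thymic library, and leaving out all 147 shared barcodes moved no list median by more than 0.11 (log2). Levels below are counts per 1000000 UMIs of nuclear-encoded genes (CPM) in the summed RNA of a label. A log2 ratio is that of Ad IIc over the other 4 labels together, unless another comparator is named.

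All 6 markers were higher in Ad IIc than in the other 4 labels together, by 3.59-fold to 5.95-fold, and than in unlabelled barcodes. They were set as markers of these cells with earlier results of these data known, so their height describes the label. Adipoq, which encodes adiponectin (chromosome 16, 23146536 to 23157968), stood at 2513 CPM in Ad IIc. Ad Ia stood at 453 CPM, Ad Ib at 299, Ad IIa at 449, Ad IIb at 256 and unlabelled barcodes at 749. The log2 ratio was 2.57 (2.44 to 2.71) over the other labels and 1.75 (1.65 to 1.84) over unlabelled barcodes. Ad IIc therefore held the highest Adipoq level of the 6 groups, and unlabelled barcodes the next highest.

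Ad IIc was also the highest group for the other markers, with unlabelled barcodes next for Cfd, Retn and Car3 and Ad Ia next for Plin4 and Cidec. Cfd, the complement protease adipsin, was at 15981 CPM in Ad IIc against 1272 to 3190 CPM in the other labels and 5336 in unlabelled barcodes. Retn, the hormone resistin, was at 2945 CPM against 234 to 599 and 983. Car3, a carbonic anhydrase abundant in fat, was at 25484 CPM against 2245 to 5376 and 8687. Plin4, a coat protein of lipid droplets, was at 1104 CPM against 63.9 to 508 and 366. Cidec, which promotes fusion of lipid droplets, lay close to its Ad Ia level. It stood at 3133 CPM in Ad IIc and 2988 in Ad Ia, against 405 to 2054 in the other labels and 1129 in unlabelled barcodes.

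**Figure D1:**
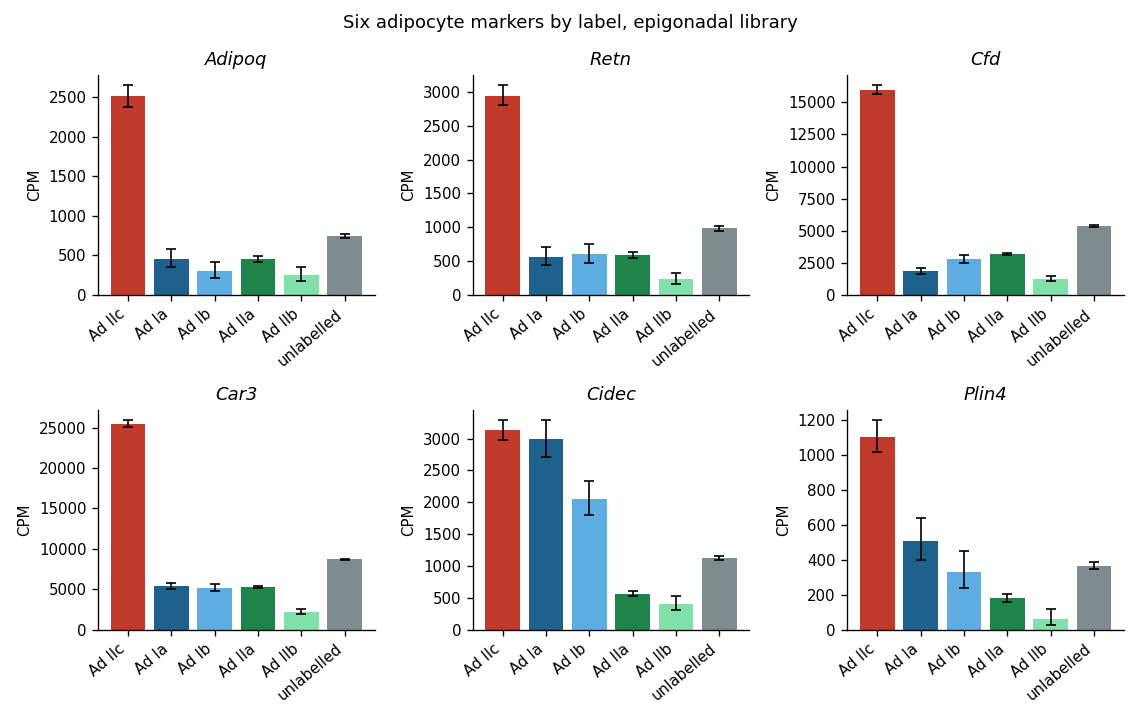
CPM of 6 adipocyte markers (linear axes from 0) in the summed RNA of each epigonadal label and of unlabelled barcodes, with exact 95% Poisson intervals for counting error. Ad IIc is the highest bar for each marker, and for Cidec the Ad Ia bar (2988 CPM) stands close to it (3133 CPM).

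At the level of single barcodes, Adipoq was found in 78.1% of Ad IIc barcodes (74.8 to 81.2, Clopper-Pearson). Unlabelled barcodes with 3 or more macrophage markers, which should lack the gene, had Adipoq in 16.9% at a median of 1037.5 UMIs against 714 in Ad IIc. After each barcode was thinned to 300 nuclear-encoded UMIs the shares were 50.2% and 3.66%. All 658 Ad IIc barcodes entered the thinning, and 1 of 356 macrophage-marker barcodes was too shallow. The same held for Retn, with 54.9% and 8.73% after thinning (83.1% and 20.5% before it), and for Plin4, with 25.5% and 2.54% (53.3% and 9.83%). Car3 was found after thinning in 99.4% of Ad IIc barcodes, but also in 39.7% of the macrophage-marker barcodes (99.8% and 72.8% unthinned). The 390 unlabelled barcodes with 3 or more fibroblast markers and fewer than 3 macrophage markers had higher shares than the macrophage-marker barcodes. After thinning they were 14.6% for Adipoq, 18.2% for Retn, 6.67% for Plin4 and 53.8% for Car3. Each marker was thus more frequent in Ad IIc than in either group.

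Of secreted products, 22 of 30 genes tested were at least 2-fold higher in Ad IIc than in the other 4 labels and 2 were lower, with a median log2 ratio of 1.87. Tested genes had at least 20 UMIs over both sides, and 6 of 36 listed genes fell below that. Over all 9182 genes tested, 20.3% were at least 2-fold higher and 39.7% at least 2-fold lower, with a median of -0.47. With TMM factors the counts were 2854 higher and 2607 lower in place of 1868 and 3642, and with median-of-ratios factors 2930 and 2550, as these scalings raised every ratio by 0.58 and 0.62. Against unlabelled barcodes 18 of 33 secreted products were higher and 5 lower, with a median of 1.13. There, over all 11564 genes tested, 12.3% were higher and 40.1% lower, with a median of -0.55. The counts there were 1423 higher and 4642 lower, against 2804 and 3492 with TMM and 3323 and 3142 with median-of-ratios factors. These shares come from the contrast that defined the label and are background for the counts that follow.

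The secreted list counts the markers Adipoq, Cfd and Retn among its higher genes. Beside them it held several high members of the acute-phase and complement systems. Orm1, an acute-phase glycoprotein, was at 155 CPM in Ad IIc and 0 to 24.9 in the other labels, a log2 ratio of 3.02 (2.42 to 3.68). Hp, the haemoglobin-binding protein haptoglobin, was at 2195 CPM against 142 to 441. C3, the central complement component, was at 331 CPM against 28.4 to 116. Complement genes Cfb (2.12) and C4b (1.99) and the protease inhibitor gene Serpina3n (2.39) had log2 ratios of similar size. Carriers of lipid and vitamin A were also high, with log2 ratios of 2.36 for Apoc1, 2.20 for Apoe and 2.30 for Rbp4. The carboxylesterase genes Ces1f (2.51) and Ces1d (2.20), whose reads may be shared between close relatives, were high as well.

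Hormone genes other than Adipoq and Retn were less abundant. Lep, which encodes leptin, had 72 UMIs in Ad IIc (139 CPM), with a log2 ratio of 1.88 (1.37 to 2.40), and was found in 9.57% of Ad IIc barcodes (3.65% thinned). In macrophage-marker barcodes it was found in 2.25% (0.282% thinned). Lpl, the lipase that frees fatty acids from circulating triglyceride, was at 5149 CPM against 533 to 2033. Igf1, a growth factor, was at 620 CPM and came close to Ad Ia at 529. Nampt, an enzyme of NAD synthesis that is also secreted, was at 198 CPM against 63.0 to 125.

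The secreted list was not uniformly high. Nrg4, a growth factor of fat, was at 91.0 CPM in Ad IIc, 404 in Ad Ia and 266 in Ad Ib. Vegfa, the angiogenic factor, was at 23.2 CPM in Ad IIc against 341 in Ad Ia and 5.66 in Ad IIa. Angptl4, an inhibitor of Lpl, was at 126 CPM, with a log2 ratio of -0.32 (-0.74 to 0.07). The 2 genes at least 2-fold lower were Fstl1 (-1.11) and Pltp (-1.41), the latter a phospholipid transfer protein, with 6 and 10 UMIs in Ad IIc. Serpina12, Ccl2 and Ptx3 had 0 UMIs in Ad IIc, which allows up to 5.81 CPM.

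Of lipid droplet genes, 10 of 22 tested were at least 2-fold higher and 3 lower, with a median of 0.69 (0.87 over unlabelled barcodes, 11 of 24 higher). The list includes the marker Plin4, which was set with earlier results known. The median was 1.31 over Ad Ia alone, 1.23 over Ad Ib, 0.56 over Ad IIa and 1.53 over Ad IIb. Members ranged from a log2 ratio of 2.49 down to -2.02. Pnpla2, the first lipase of stored triglyceride, was at 1523 CPM against 135 to 357 in the other labels. Its co-activator Abhd5 had a log2 ratio of 1.76 and its inhibitor G0s2 one of 2.49. Lipe, the hormone-sensitive lipase, was at 1011 CPM in Ad IIc and 989 in Ad Ia. The droplet coat gene Plin1 was higher in Ad Ia (808 CPM) than in Ad IIc (444), and low in Ad IIa (97.0) and Ad IIb (42.6).

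Other members of the list were at like or lower levels in Ad IIc. Cav1, Cavin1 and Cavin2, which build caveolae, had log2 ratios of 0.06, 0.20 and -0.04. Mgll, the lipase of monoglycerides, was at 905 CPM in Ad IIc and 1513 to 2267 in the other labels. Hsd17b11, a droplet-associated dehydrogenase, had a log2 ratio of -2.02 (-2.90 to -1.33). Faf2, a ubiquitin adaptor, had one of -1.49, with 10 UMIs in Ad IIc.

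Lipid synthesis genes were mostly higher than in the other labels together, by amounts that depended on the label. In lipogenesis 10 of 15 tested genes were at least 2-fold higher and 1 lower (median 1.59). Over Ad Ia alone 6 of 13 were higher and 3 lower (median 0.77), beside 31.7% and 33.6% of all genes, and over Ad IIb the median was 3.04. Fasn, the fatty acid synthase, was at 1314 CPM in Ad IIc against 156 to 249 in the other labels. Aacs, which makes acetoacetyl-CoA, and Slc25a1, the mitochondrial citrate carrier, had log2 ratios of 2.46 and 2.40. At the low end, Elovl5, a fatty acid elongase, had a ratio of -2.50 (-3.44 to -1.77), and Acacb, an acetyl-CoA carboxylase, was at 136 CPM against 662 in Ad Ia.

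Triglyceride synthesis also depended on the comparator. Over the other 4 labels 7 of 12 genes were higher and 1 lower (median 1.38), but over Ad Ia alone 3 of 11 were higher and 1 lower (median -0.29), the higher share being near the 31.7% of all genes. Dgat2, which adds the last acyl chain, had a log2 ratio of 2.64 (2.39 to 2.91), Gpd1, which makes the glycerol backbone, one of 2.45, and Agpat2 one of 2.35. Aqp7, the glycerol channel, had one of -2.58. In fatty acid uptake 4 of 13 genes were higher and 2 lower (median 0.26). Fabp4, the abundant fatty acid binding protein, was at 36252 CPM in Ad IIc against 4951 to 15308, while the uptake receptor Cd36 had a ratio of -1.63 and Gpihbp1, the endothelial anchor of Lpl, one of -3.51.

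Genes of soluble cytosolic enzymes were higher nearly throughout: 31 of 32 were at least 2-fold higher, none was lower, and the median was 2.03 (1.31 over unlabelled barcodes, 27 of 32). Aldoa had no unique row and was not counted. The metal-binding metallothioneins Mt1 (868 CPM against 92.4 to 167) and Mt2 and the glycolytic enzyme Pgam1 led, with log2 ratios of 2.53, 2.54 and 2.52. Only Gpi1, another glycolytic enzyme, stayed under 2-fold, at 0.85 (0.40 to 1.27).

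Ribosomal protein genes made up 8.44% of nuclear-encoded UMIs in Ad IIc (8.36 to 8.51, Clopper-Pearson). Ad Ia had 1.51%, Ad Ib 2.66%, Ad IIa 3.78%, Ad IIb 2.70% and unlabelled barcodes 5.34%. Of 82 genes tested 72 were at least 2-fold higher over the other labels and none was lower (median 1.35). Over unlabelled barcodes 4 of 82 (4.88%) were at least 2-fold higher, fewer than the 12.3% of all genes. The median there was 0.68, against -0.55 for all genes. The highest were Rps27l, Rps2 and Rpl11, at 1.90, 1.90 and 1.85. Over barcodes, the middle 50% of Ad IIc ran from 7.12% to 9.64% ribosomal protein RNA. Each other label had its upper quartile below that range, between 1.82% and 4.53%. The quartiles of unlabelled barcodes, 3.44% and 8.41%, overlapped it.

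Translation factors had 16 of 18 genes higher (median 1.31), led by Eef1d at 1.73. Over unlabelled barcodes 3 of 18 were (median 0.70), beside 12.3% of all genes. Genes of protein entry and folding in the endoplasmic reticulum were less shifted, with 9 of 27 higher, 1 lower and a median of 0.64 (0.12 over unlabelled barcodes). Its highest members were Gstk1 (2.30), a glutathione transferase, Sec61g (1.94), a subunit of the protein channel, and Spcs1 (1.90), a signal peptidase subunit. Ero1l, an oxidase for disulfide bonds, was the lowest at -1.17, with 6 UMIs in Ad IIc.

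**Figure D2:**
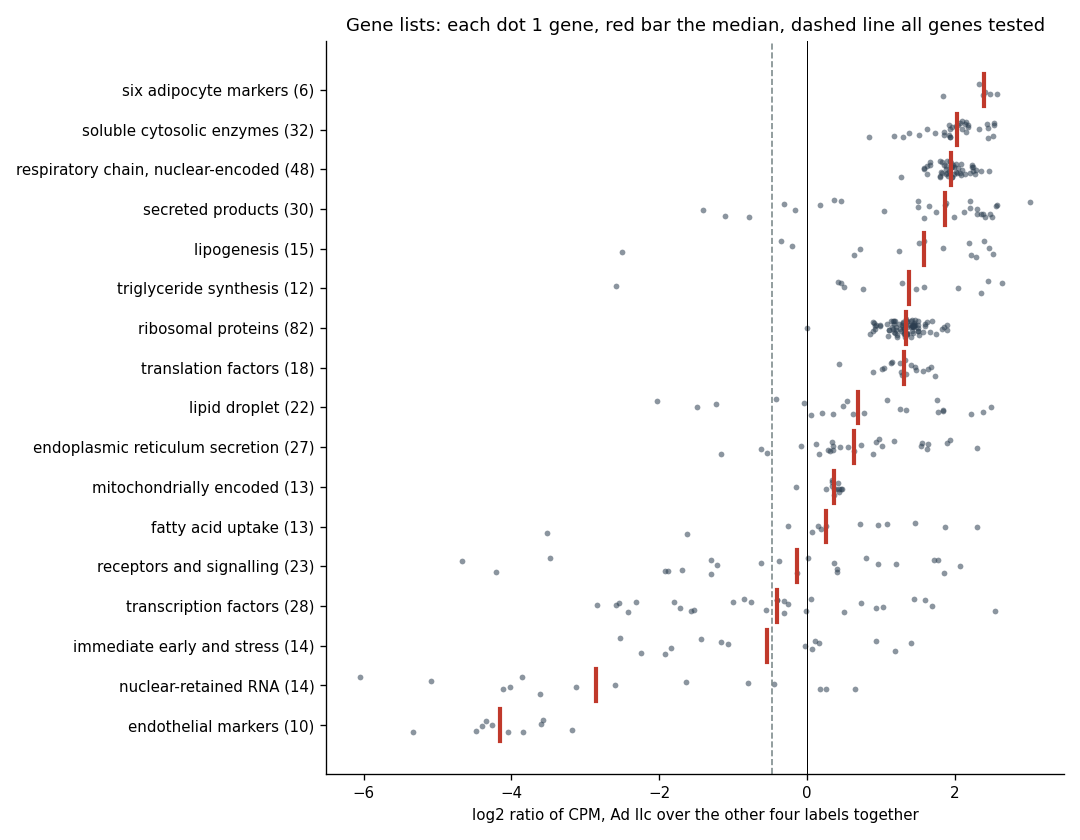
Log2 ratio of CPM, Ad IIc over the other 4 labels together, for each gene of 17 lists with at least 20 UMIs. Red bars are list medians and the dashed line is the median of all 9182 genes tested (-0.47). The number of genes tested stands beside each list name. Cytosolic and nuclear-encoded respiratory genes lie near 2, and nuclear-retained RNA and endothelial markers lie lowest.

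Respiratory chain genes encoded in the nucleus and in the mitochondrion stood at different heights. All 48 nuclear-encoded genes tested were at least 2-fold higher over the other labels (median 1.95), and 46 over unlabelled barcodes (median 1.32). Cox6c and Cox8a, subunits of cytochrome oxidase, had log2 ratios of 2.47 and 2.36, and the lowest, Ndufs1 of complex I, one of 1.27 (0.80 to 1.72). None of the 13 mitochondrially encoded genes was 2-fold higher or lower over the other labels together (median 0.37, 0.18 to 0.99 under the alternatives). They ran from -0.14 for mt-Nd6 to 0.47 for mt-Nd5. Over Ad IIb alone 8 of 13 were at least 2-fold higher (median 1.03), beside 34.0% of all genes. Over Ad Ia, Ad Ib and Ad IIa none was. Over unlabelled barcodes all 13 lay between -1.04 and -0.57, with 1 at least 2-fold lower, but their median there changed sign to 0.25 in barcodes under 5% mitochondrial UMIs.

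As a share of all UMIs, mitochondrially encoded RNA was 6.29% in Ad IIc (6.23 to 6.35). Ad Ia had 5.31%, Ad Ib 5.89%, Ad IIa 4.91%, Ad IIb 3.29% and unlabelled barcodes 10.6%. Single Ad IIc barcodes had a median of 6.05% and a maximum of 12.5%. No labelled barcode exceeded 14.9%, and 1060 unlabelled barcodes did. The 10.6% of unlabelled barcodes and the mitochondrial ratios over them include these 1060.

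Nuclear-retained RNA was low in Ad IIc. Of 14 genes tested 9 were at least 2-fold lower in Ad IIc and none was higher, with a median of -2.86, or -2.12 with genes at 0 set to their limit. Over unlabelled barcodes 12 of 18 were lower (median -2.90, or -2.48). Malat1, a long RNA of nuclear speckles (chromosome 19, 5795690 to 5802672), was at 1738 CPM in Ad IIc. Ad Ia stood at 42891 CPM, Ad Ib at 38827, Ad IIa at 10009, Ad IIb at 11667 and unlabelled barcodes at 12886. Malat1 was found in 60.2% of Ad IIc barcodes and in 100% of Ad IIa barcodes. After thinning the shares were 35.4% and 92.9%, and in macrophage-marker barcodes 96.6% (98.6% unthinned).

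Most other retained RNAs were low as well. Neat1, the core of paraspeckles, was at 89.1 CPM in Ad IIc against 362 to 1776 in the other labels. Airn and Kcnq1ot1, long RNAs of imprinted loci that lie antisense to Igf2r and Kcnq1, had log2 ratios of -5.08 and -4.02. The sources used here do not state whether strand was used in counting, so reads of the partner genes may be included. Dleu2 (-3.61) and Pvt1 (-1.64) had 12 and 4 UMIs in Ad IIc. Firre, a nuclear long RNA encoded on the X chromosome, had 0 UMIs in Ad IIc and 105 in the other labels, at least 11.0-fold lower, and Ftx was at least 2.83-fold lower.

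Some members of the retained list were not low. Gm42418 and AY036118, which overlap ribosomal RNA sequence, were at log2 ratios of 0.26 and 0.64. Together they made up 15.9% of nuclear-encoded UMIs in Ad IIc, against 10.1% to 15.7% in the other labels and 15.8% in unlabelled barcodes. Gm26917, often counted with them, was at -3.85. The retained RNAs other than these 3 made up 0.195% of nuclear-encoded UMIs in Ad IIc (0.183 to 0.207), 1.19% to 4.59% in the other labels and 1.44% in unlabelled barcodes. In 237 Ad IIc barcodes (36.0%) none was found.

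**Figure D3:**
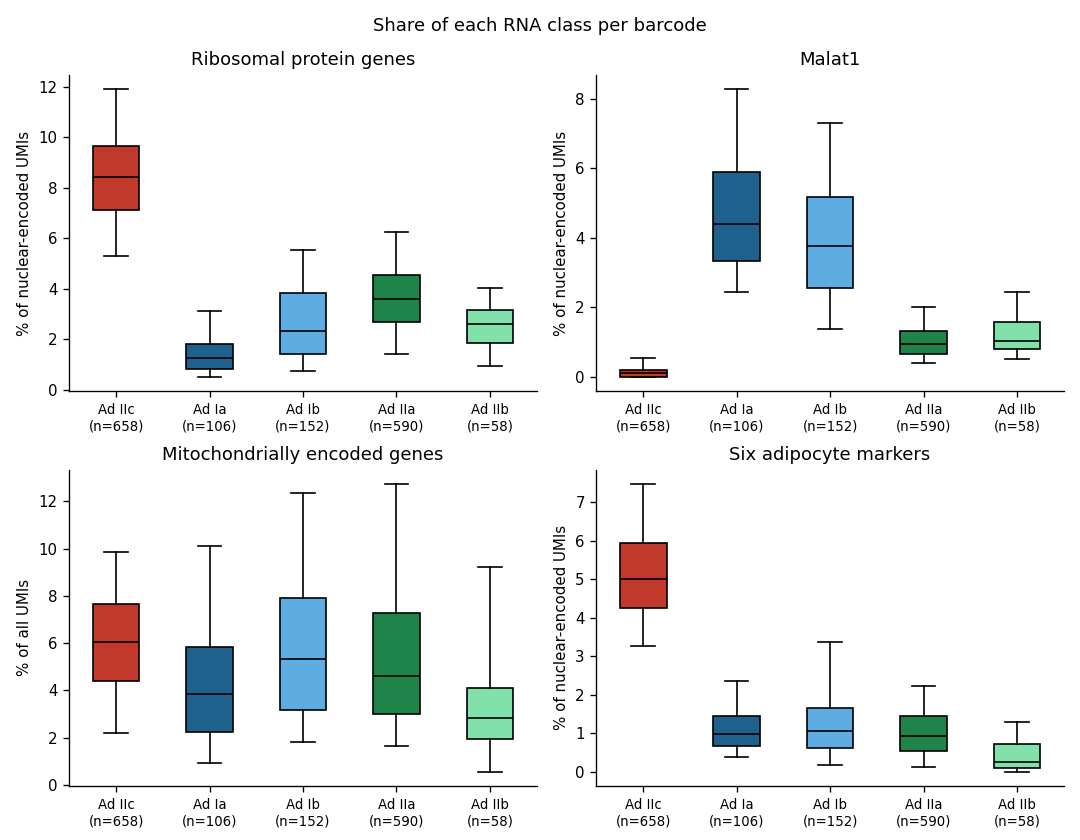
Percent of a barcode's UMIs from ribosomal protein genes, Malat1 and 6 adipocyte markers (of nuclear-encoded UMIs) and from mitochondrially encoded genes (of all UMIs), by label. Boxes are quartiles with the median as a line, and whiskers reach the 5th and 95th percentiles of barcodes. Ad IIc has the highest ribosomal protein and marker boxes and the lowest Malat1 box, and its mitochondrial box overlaps those of other labels.

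Over the other 4 labels together, transcription factors and receptors were called in shares close to those over all genes (20.3% higher and 39.7% lower), and over single comparators the receptors differed in direction. Of 28 transcription factors 5 were at least 2-fold higher and 10 lower, with a median of -0.41. That median was 0.17 with TMM and 0.21 with median-of-ratios factors, -1.06 thinned and -1.34 with the other labels at equal weight. Over Ad Ia alone 3 of 25 were higher and 14 lower (median -1.62), beside 31.7% and 33.6% of all genes. Over Ad IIa alone 9 of 25 were higher and 8 lower (median -0.05), beside 21.8% and 38.2%. The adipocyte regulator Cebpa was at 641 CPM in Ad IIc against 28.4 to 121 in the other labels, a log2 ratio of 2.55. Its usual partner Pparg was at 356 CPM in Ad IIc against 773 to 2012, a ratio of -2.31 (-2.54 to -2.10). Ebf1, another adipocyte regulator, had a ratio of -2.55, Zbtb16 one of -2.59 and Creb5 one of -2.84. The Cebpa gene spans 2.64 kb of genome, Pparg 129.5 kb and Ebf1 390.0 kb.

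Receptors and signalling genes had 5 of 23 members higher and 9 lower, with a median of -0.13. That median was 0.45 with TMM, 0.49 with median-of-ratios factors and 0.01 with 5 UMIs added, but -1.20 with the other labels at equal weight. Over unlabelled barcodes 7 of 24 were higher and 5 lower, beside 12.3% and 40.1% of all genes, with a median of 0.16 that was -0.37 in barcodes of at least 1000 UMIs. Over Ad Ia alone the median was -2.37 with 15 of 19 lower, where 31.7% of all genes tested were at least 2-fold higher and 33.6% lower. Over Ad IIa alone it was 1.62 with 13 of 22 higher, where 21.8% of all genes tested were higher and 38.2% lower. The ratios that follow are over the other 4 labels together. Over Ad Ia no member tested had a ratio above 0.22. Grb14, an adaptor that binds the insulin receptor, had a ratio of 2.07 over the other 4 labels. Ptger3, a prostaglandin receptor, had one of 1.85, and Prkar2b, a regulatory subunit of protein kinase A, one of 1.77. At the low end were Npr1, a natriuretic peptide receptor, with 2 UMIs in Ad IIc, Igf1r (-4.22), a growth factor receptor, and Trpm3 (-3.48), an ion channel.

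Gene length in the genome ordered the ratios across all genes. Genes were ranked by their RefSeq span from first to last base, introns included, which was known for 98.6% of those tested. They were then divided into 10 bins of like size. In the bin with the shortest genes (0.154 to 5.30 kb) the median log2 ratio was 1.30, and 61.6% were at least 2-fold higher. It was lower in each next bin, down to -2.21 for genes of 142.1 kb and more, where 0.773% were higher and 82.6% lower. Across 9057 genes, which share libraries and are not independent, Spearman's rho was -0.573. The same order was seen over unlabelled barcodes (rho -0.523 across 11355 genes, medians from 0.74 to -2.31) and over each single label (rho -0.527 to -0.777).

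Summed over UMIs, genes under 10 kb gave 45.7% of the nuclear-encoded RNA with a known span in Ad IIc. They gave 14.9% to 20.2% in the other labels and 27.3% in unlabelled barcodes. Genes of 100 kb and over gave 10.0% in Ad IIc, 32.9% to 38.9% in the other labels and 26.5% in unlabelled barcodes. The lists differ in span as well. Median span was 3.17 kb for ribosomal protein genes, 6.41 kb for nuclear-encoded respiratory genes, 9.10 kb for the 6 markers and 97.9 kb for transcription factors. Not all lists followed this order over the other 4 labels together. Immediate early and stress genes had a median span of 3.03 kb and a median log2 ratio of -0.55. Under the alternatives that median ran from -0.71 to 0.07. Over Ad Ia and Ad Ib alone, with 7 genes tested in each, it was 0.48 and 1.56. Lipogenesis genes had a median span of 43.1 kb and a median log2 ratio of 1.59. Span and list membership were not separated, and the part of span in each list's ratio was not tested. The sources used here do not state whether intronic reads were counted.

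**Figure D4:**
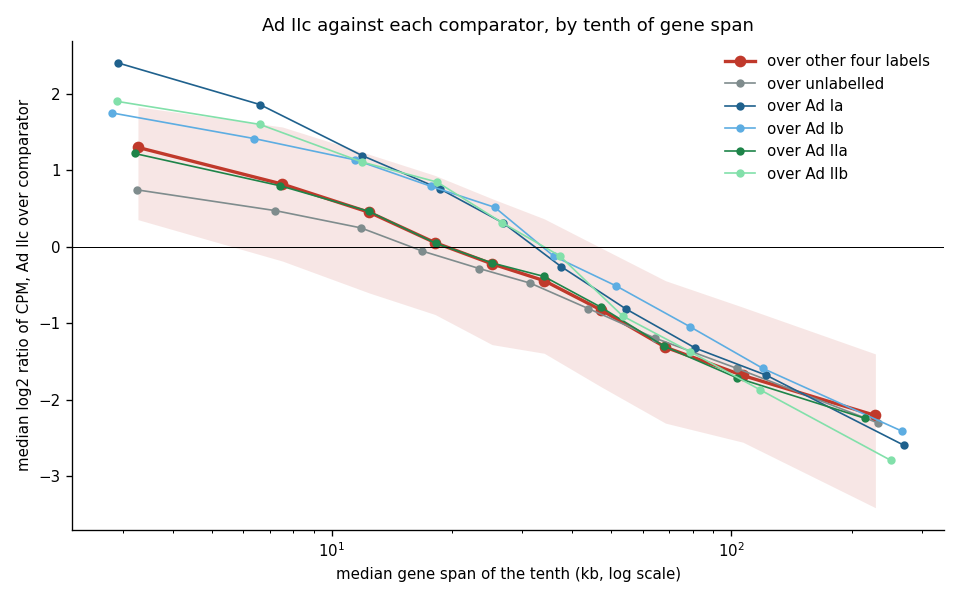
Median log2 ratio of CPM, Ad IIc over each comparator, for genes grouped into 10 bins by genomic span (log axis). The shaded band is the range between the quartiles of genes for the other 4 labels together. Against those labels the line falls from 1.30 in the shortest bin to -2.21 in the longest, and the lines for single labels and unlabelled barcodes fall too.

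Ranked over genes whose higher side reached 50 UMIs and 50 CPM, leaving out mitochondrially encoded, ribosomal protein and predicted genes, the largest ratios over the other labels belonged to Orm1 (3.02), Nnmt (2.97), which methylates nicotinamide, Mrps34 (2.91), a mitochondrial ribosomal protein, and Psat1 (2.81), an enzyme of serine synthesis. They were followed by Dgat2, the chromatin protein gene Hmgn2 (2.64) and Etfb (2.59), an electron carrier of fatty acid oxidation. Over unlabelled barcodes Nnmt, Mrps34, Orm1, Dgat2 and Adipoq were again among the 15 largest, with Arxes2 and Lrg1 at the head. Both comparisons share the Ad IIc barcodes.

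The largest ratios downwards were of genes nearly absent from Ad IIc. Kirrel3, an adhesion molecule, had 0 UMIs in Ad IIc and 236 in the other labels, at least 24.7-fold lower, and Sema7a was at least 21.8-fold lower. Tet2, an enzyme of DNA demethylation, was at least 15.0-fold lower. St6galnac3, a sialyltransferase, had 3 UMIs against 843 (log2 -6.24, -8.75 to -4.91), and the transcription cofactor Ldb2 had 6 against 1353. Ad IIa gave 1237126 of the 1641717 nuclear-encoded UMIs of the other labels together. It held 223 of the Kirrel3 UMIs, 156 of Sema7a, 102 of Tet2, 619 of St6galnac3 and 1024 of Ldb2. In Ad Ia the same genes stood at 27.9, 13.9, 132, 48.7 and 90.5 CPM. The spans of these genes differ widely, from 23.3 kb for Sema7a and 81.5 kb for Tet2 to 526.9 kb for St6galnac3 and 555.0 kb for Kirrel3.

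Endothelial markers were low in Ad IIc, and how low depended on the label it was set against. All 10 were at least 2-fold lower than in the other labels together (median -4.15), while over Ad Ia 2 of 7 were (median -0.83), beside 33.6% of all genes. The median over Ad Ib was -2.15. Their summed level was 515 CPM in Ad IIc. Ad Ia stood at 919 CPM, Ad Ib at 2345, Ad IIa at 10246, Ad IIb at 13358 and unlabelled barcodes at 2802. At least 3 of these markers were found in 3.50% of Ad IIc barcodes, 94.4% of Ad IIa and 100% of Ad IIb barcodes. Gpihbp1 and Cd36, low in Ad IIc above, are also genes of capillary endothelium. The part of endothelial RNA in each ratio over the other labels was not tested.

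Markers of further cell types differed in level. Macrophage markers summed to 188 CPM in Ad IIc. Ad Ia stood at 571 CPM, Ad Ib at 815, Ad IIa at 110, Ad IIb at 71.1 and unlabelled barcodes at 1575. Ptprc, the pan-leukocyte gene, had 0 UMIs in Ad IIc and 2076 in unlabelled barcodes (at least 94.5-fold lower). T-cell markers had 11 UMIs in all, mesothelial markers 2, and epididymal and germ cell markers 0. Haemoglobin and other erythroid markers summed to 393 CPM, below Ad Ib at 1015 and unlabelled barcodes at 9561 and above the remaining labels at 107 to 223. Fibroblast markers summed to 3910 CPM, the highest of the 6 groups (711 to 1763 in the other labels and 3281 in unlabelled barcodes), and Gsn, an actin-severing protein, gave 3427 of it. Of 12 adipocyte markers, which include the 6 above, 11 were at least 2-fold higher in Ad IIc than in the other labels together. Pparg was lower, and 20.3% of all genes were higher. Over Ad Ia alone 7 of 12 were higher and 2 lower, beside 31.7% and 33.6% of all genes. Over Ad Ib 7 were higher and 1 lower, beside 31.0% and 30.0%.

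Nearly all Ad IIc barcodes held several of the 6 markers. All 6 were found in 225 barcodes (34.2%), 3 or more in 650 (98.8%), and none in 1. In the other labels 55.2% to 84.0% of barcodes held 3 or more, and in unlabelled barcodes 66.4%. After thinning, 23 barcodes (3.50%) had all 6. When barcodes were cut into 4 groups by UMI total, Adipoq stood at 2504, 2760, 2418 and 2454 CPM from the shallowest to the deepest group. The Car3 level ran between 25235 and 26196 CPM, and ribosomal protein RNA between 8.34% and 8.72%. Marker levels thus differed little with depth. Malat1 was at 1984, 1890, 2013 and 1395 CPM and endothelial markers together at 331, 270, 382 and 792 CPM, so the deepest group differed from the others in both. Mitochondrially encoded RNA stood at 5.29%, 5.92%, 6.20% and 6.92%.

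Spread between barcodes was larger for some genes. After thinning, the variance divided by the mean (the Fano factor, near 1 for counting noise) was 1.16 for Adipoq, 1.33 for Car3 and 1.90 for Cfd. For Malat1 it was 2.80, with up to 16 UMIs in a barcode at a mean of 0.576. The Malat1 value was higher in Ad Ia (3.39) and Ad Ib (3.55) and lower in Ad IIa (1.59) and Ad IIb (1.63).

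Transcripts were also counted per Adipoq UMI, for genes chosen with their values known. By this measure several transcripts stood close in Ad IIc and elsewhere. Car3 had 10.1 UMIs per Adipoq UMI in Ad IIc (9.58 to 10.7), 11.9 in Ad Ia, 11.8 in Ad IIa, 11.6 in unlabelled barcodes and 12.9 in macrophage-marker barcodes. Hp had 0.874 in Ad IIc, 0.815 in Ad Ia and 0.874 in Ad IIa. Cebpa had 0.255, 0.231 and 0.270. Ad Ib lay higher for Car3, at 17.4 (12.4 to 25.1), and for Hp, at 1.47 (0.946 to 2.31). Ad IIb, with 36 Adipoq UMIs, had 0.556 for Hp (0.305 to 0.986) and 0.111 for Cebpa (0.0287 to 0.310), intervals that hold the Ad IIc values.

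Other adipocyte transcripts were lower per Adipoq UMI in Ad IIc than in Ad Ia and Ad Ib. Cidec had 1.25 UMIs per Adipoq UMI in Ad IIc (1.16 to 1.34) and 1.26 in Ad IIa, but 6.60 in Ad Ia (5.07 to 8.71) and 6.86 in Ad Ib. Plin1 had 0.177 in Ad IIc, 1.78 in Ad Ia and 1.31 in Ad Ib. Acsl1, which activates fatty acids, had 0.243, 3.25 and 2.31. Pparg had 0.142 in Ad IIc, against 2.18 to 5.19 over the other labels, 0.831 in unlabelled and 2.04 in macrophage-marker barcodes. Where the adipocyte transcripts outside Ad IIc came from was not tested.

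**Figure D5:**
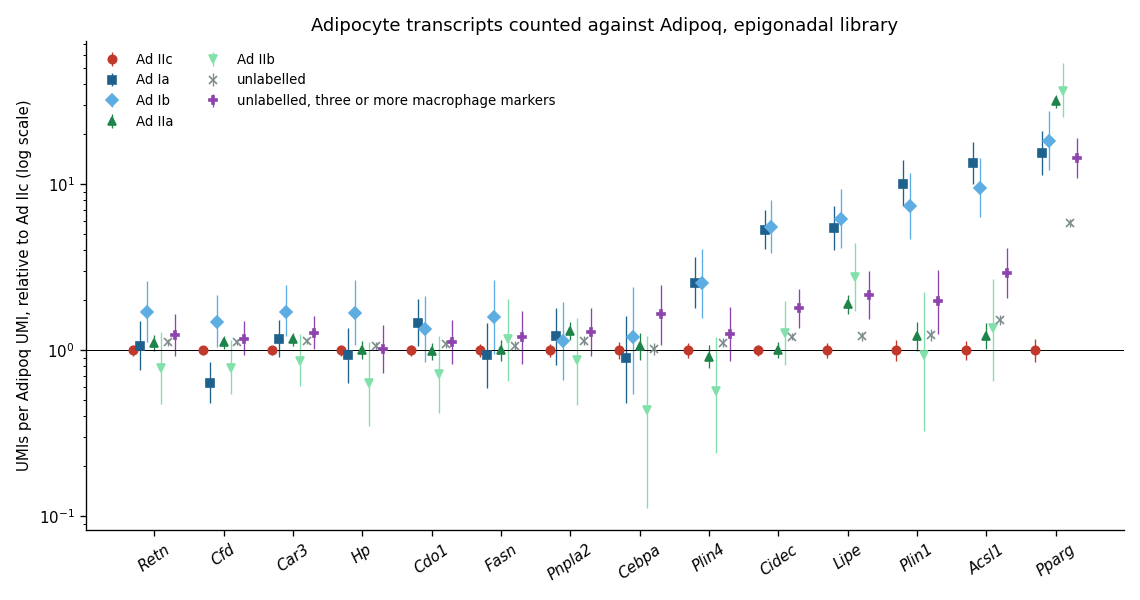
UMIs of 14 adipocyte transcripts per Adipoq UMI in each group, divided by the Ad IIc value (log axis), with exact 95% intervals for counting error. Retn, Hp, Fasn and Cebpa lie close to 1 in most groups, while Cidec, Plin1 and Acsl1 are higher in Ad Ia and Ad Ib and Pparg is higher in every group than in Ad IIc.

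Unlabelled barcodes as a whole had a profile closer to Ad IIc than any other label had, but not every subset of them did. Across 9965 genes, Spearman's rho of CPM with Ad IIc was 0.634 for all unlabelled barcodes and 0.702 for the 919 of like depth and mitochondrial percent. It was 0.564 for Ad IIa, 0.476 for Ad Ib, 0.453 for Ad Ia and 0.408 for Ad IIb. The 390 unlabelled barcodes with 3 or more fibroblast markers and fewer than 3 macrophage markers were at 0.527. Those with 3 or more macrophage markers were at 0.436. These groups share 1 library and differ in summed depth. The 34 thymic barcodes labelled Ad IIc had 3 Adipoq UMIs (55.3 CPM), 0 of Plin4, Pecam1 at 903 CPM and Malat1 at 14245 CPM. In epigonadal Ad IIc Pecam1, an endothelial adhesion molecule, was at 48.4 CPM.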

How the data were processed

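Nuclear RNA of 1 epigonadal library was analysed. The authors deposited raw UMI counts per gene and barcode (32285 genes, 6504841 UMIs), whose header names cellranger 7.2.0. Build mm10, Cell Ranger ARC 2.0.2 and Seurat 5.1.0 are given in the submitters' processing notes. The table the authors deposited per labelled nucleus gives a UMI count, the percent of mitochondrial UMIs, a cluster, a doublet class and a label. Its UMI count equalled the matrix in 789 of 1564 barcodes, and in 1563 once genes found in fewer than 3 barcodes were dropped. No further doublets were removed.

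UMIs were summed per label and scaled to 1000000 nuclear-encoded UMIs. For log2 ratios 0.5 UMI was added on both sides. Intervals at 95% were exact: binomial for ratios, Poisson for sums and Clopper-Pearson for shares. Neighbouring molecules of a nucleus are not independent, so intervals cover counting error only. A count of 0 was given a limit of 3 UMIs over the Ad IIc sum. With 1 library there was no test and no p-value. The ratio script was tested on simulated data.

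Named genes were all genes of the marker, secreted, lipid droplet, nuclear-retained and mitochondrially encoded lists. They also included the 3 highest and 3 lowest of other lists, the 20 genes with most UMIs, the 3 most abundant of each cell-type list, and the 15 largest ratios in each direction with at least 50 UMIs and 50 CPM, without predicted, mitochondrial and ribosomal protein genes. Pparg, Pecam1 and the genes counted per Adipoq UMI, among them Acsl1 and Cdo1, were chosen with their values known. Members and lists were chosen with earlier results of these data known. Gene spans and promoters came from RefSeq (GRCm38.p6). Alternatives were other scalings, minimums, added counts, weights and barcode filters, with edgeR 4.0.16 used only for TMM factors. Python 3.11.15, numpy 2.4.6, pandas 2.3.3, scipy 1.17.1 and R 4.3.3 were used.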

Additional observations from a re-analysis of the deposited data

How the results depend on the processing

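Of 430 alternative list medians, 420 kept their sign. TMM and median-of-ratios factors raised every ratio over the other labels by 0.58 and 0.62 and over unlabelled barcodes by 0.48 and 0.65, so that the median of all genes tested became 0.10 and 0.15 over the other labels and, with median-of-ratios factors, 0.096 over unlabelled barcodes. With no minimum the latter was 0.044 and with 5 UMIs added 0.18. Under TMM and median-of-ratios factors the medians over the other labels were 2.45 and 2.49 for secreted products, 1.92 and 1.96 for ribosomal proteins, 0.94 and 0.99 for mitochondrially encoded genes and -2.28 and -2.24 for nuclear-retained RNA. Over unlabelled barcodes they were 1.61 and 1.78 for secreted products, 1.35 and 1.52 for lipid droplet genes, 1.16 and 1.33 for ribosomal proteins and -0.37 and -0.20 for mitochondrially encoded genes. Genes at least 2-fold higher numbered 2854 and 2930 over the other labels and 2804 and 3323 over unlabelled barcodes.

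The nuclear-retained median over the other labels was -3.15 with equal weight per barcode, -3.55 thinned, -3.37 with a minimum of 50 UMIs, -1.14 with none, -1.74 with 5 UMIs added, -3.77 after subtracting the unlabelled profile at 10% and -3.38 with the other labels at equal weight. With those weights the ribosomal protein median was 1.69. The mitochondrially encoded median over the other labels was 0.49 when ribosomal protein genes, Malat1, Gm42418 and AY036118 were left out of the total, 0.18 with equal weight per barcode, 0.65 in barcodes of at least 1000 UMIs, 0.22 in those under 5% mitochondrial UMIs and 0.46 after subtraction. Over unlabelled barcodes it was -1.37 with equal weight and -0.39 at 1000 UMIs, and reversed to 0.25 under 5%, a filter that cuts on the same RNA. Under that filter secreted products were at 1.83 and ribosomal proteins at 1.05, and thinning gave ribosomal proteins 0.50.

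Counts of genes moved further. Over the other labels, 1049 were higher and 1745 lower when thinned, 3330 and 5778 with no minimum, and 2421 were lower with 5 UMIs added. Over unlabelled barcodes, 762 and 2640 were counted when thinned, 5020 were higher with no minimum, and 2269 were higher and 2112 lower with 5 UMIs added. Against unlabelled barcodes of like depth and mitochondrial percent, an alternative chosen after seeing the data like that without shared barcodes, 630 were higher and 2116 lower, and the mitochondrially encoded median was -0.53. Nuclear-retained RNA was 0.215% of Ad IIc UMIs when thinned and 0.157% in barcodes of at least 1000 UMIs, where mitochondrially encoded RNA was 7.08%. No paired analysis was possible because there was 1 library, and no replicate could be left out. At a median of 714 UMIs, genes with few UMIs in Ad IIc are known only as sums over barcodes.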

Other observations

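List medians of immediate early and stress genes differed in direction between comparators, which tested different numbers of the 20 listed genes. Genes low in Ad IIc more easily fell below 20 UMIs against the smaller sums of Ad Ia and Ad Ib. The summed level of all 20 genes was highest in Ad IIc, at 2185 CPM. Ad Ia stood at 787 CPM, Ad Ib at 1015, Ad IIa at 1592, Ad IIb at 1385.5 and unlabelled barcodes at 1622. Of 14 tested, 2 were at least 2-fold higher than in the other labels and 7 lower, beside 20.3% and 39.7% of all genes. The median was -0.55 (0.03 with TMM, 0.07 with median-of-ratios factors and 0.06 when thinned). Over Ad Ia 3 of 7 were higher and none lower (median 0.48), beside 31.7% and 33.6% of all genes. Over Ad Ib 4 of 7 were higher and 2 lower, beside 31.0% and 30.0%. The median there was 1.56, or 0.84 with genes at 0 set to their limit. Over unlabelled barcodes none of 17 was higher and 7 were lower, beside 12.3% and 40.1% of all genes. The median there was -0.85 and was negative under all 13 alternatives. The chaperone genes Hsp90aa1 and Hspa8 had log2 ratios of 1.41 and 1.20. Nr4a1, Dusp1 and Egr1, genes induced soon after a stimulus, had 1, 10 and 8 UMIs in Ad IIc and log2 ratios of -2.53, -2.25 and -1.92.

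Some genes listed as markers of other cells were higher in Ad IIc than in the other labels together. Gsn had a log2 ratio of 2.35 (2.24 to 2.46) over the other labels, and Scn7a, a sodium channel on the Schwann list, had 81 UMIs and one of 1.63. Scn7a was higher in Ad Ia, at 251 CPM against 157 in Ad IIc, and 5 of 7 Schwann markers were at 0 in Ad IIc. Ighm, an immunoglobulin heavy chain, had 66 UMIs and a ratio of 2.12, but 3 of 4 B-cell markers tested were at least 2-fold lower (median -1.60). B-cell markers together were at 209 CPM against 398 to 669 in the other labels and 560 in unlabelled barcodes. Ifi27l2a, an interferon-induced gene, was the eighth most abundant transcript, at 10020 CPM against 966 to 2149 in the other labels. Cmss1, Camk1d and Lars2, also among the 20 most abundant, had ratios of -0.01, 0.21 and 0.04.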
